A study of Homo sapiens with 112 samples.

Results

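The genes of MHC class I antigen presentation were followed across the 8 treatment groups of each of 2 human prostate cancer cell lines, VCaP and LAPC4. The 9 genes were taken by name from 58684 listed genes: HLA-B, HLA-C, B2M, TAP1, TAP2, TAPBP, PSMB8, PSMB9 and NLRC5. VCaP and LAPC4 are established lines that grow in response to androgen, and VCaP cells carry a fusion that puts the ERG gene under control of the androgen-responsive TMPRSS2 promoter. Before treatment, the cells of every group spent 2 days on 10% serum stripped with charcoal, which holds little steroid hormone. They then received DMSO as vehicle, 1 nM of the synthetic androgen R1881, or 1 nM R1881 together with 0.5 or 2 µM darolutamide, which blocks the androgen receptor. Poly-A RNA was collected after 8 or 22 h and sequenced as single-end reads of 50 bases. At 8 h, VCaP had 10 libraries with DMSO, 10 with R1881 and 4 and 5 with the low and the high dose, and at 22 h it had 8, 9, 4 and 5. For LAPC4 these groups had 10, 10, 5 and 5 libraries at 8 h and 7, 10, 5 and 5 at 22 h. All libraries of a line come from that 1 line in culture, the labels do not say whether replicates were separate cultures, and p-values measure only the spread between these libraries. The study's methods speak of 5 biological replicates per condition.

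MHC class I molecules show fragments of a cell's own proteins to CD8 T cells and to natural killer cells. The proteasome cuts proteins into peptides, and its immunoproteasome form carries the subunits PSMB8 and PSMB9. The TAP1-TAP2 transporter moves the peptides into the endoplasmic reticulum, where tapasin, the product of TAPBP, helps to load them onto a complex of a heavy chain, such as HLA-B or HLA-C, with beta-2 microglobulin, the product of B2M. NLRC5 is a transactivator of these genes, and interferon is the classical inducer of the whole set. Tumours, prostate cancers included, often carry low levels of the pathway.

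Of the 9 genes, 7 lie in the MHC region of chromosome 6. In GENCODE 44 on GRCh38, HLA-C spans chr6:31268749-31272130 and HLA-B chr6:31353872-31367067. Further along the chromosome, TAP2 (chr6:32821833-32838739), PSMB8 (chr6:32840717-32844679) and TAP1 (chr6:32845209-32853816) sit side by side on the minus strand, with PSMB9 (chr6:32844136-32859851) on the plus strand, and TAPBP is at chr6:33299694-33314284. B2M is at chr15:44711358-44718851 and NLRC5 at chr16:56989485-57083531, both on the plus strand. The annotated PSMB9 gene overlaps PSMB8, TAP1 and the antisense gene PSMB8-AS1, and the strand setting of the counting is not given in the sources used here, so reads in these overlaps are uncertain. Of the 50-base windows of the longest HLA-B and HLA-C transcripts (3498 and 1831 windows), 1.09% and 6.39% also occur letter for letter in other HLA genes. Near matches were not counted, so these shares do not bound the reads that could be assigned to another HLA gene. Reads from alleles that differ from the reference may be lost.

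Libraries held 12188455 to 25201678 counted reads, with a median of 20144050.5. The luminal markers KRT8, KRT18, HOXB13, EPCAM and CDH1 were counted in every library of both lines, and ERG had at least 1578 reads in each VCaP library and at most 1 in each LAPC4 library. Leukocytes carry high class I levels, and their 10 markers together reached 0.0941 to 1.41 CPM (reads of a gene scaled to one common library total) in VCaP libraries and 1.70 to 6.0 CPM in LAPC4 libraries. The B cell gene MS4A1 and the killer cell gene NKG7 had 0 reads in all 112 libraries. In LAPC4, CORO1A held 3920 of the reads of this list and PTPRC 125.

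Promoters of HLA-B, HLA-C, B2M, TAP2, TAPBP and PSMB8 are printed here, since these are the genes with at least 31 reads in every VCaP library that passed the test for R1881 at both times. RefSeq windows on GRCh38.p14, from 250 bases before to 50 bases after a start site, were given for 8 of the 9 genes in 10 windows, and NLRC5 had no entry. The printed windows run 5′ to 3′ on the gene's own strand. The windows of TAP1 and PSMB9 and the first window of PSMB8 are not printed. Capitals mark matches to 4 motifs on either strand: GAAANN followed by GAAA, an interferon response element (ISRE-like), TTCNNNGAA, a STAT site (GAS-like), CCAAT, the box bound by NF-Y, and AGAACA, the hexamer of the androgen response element.
HLA-B, chr6:31357130-31357429, minus strand: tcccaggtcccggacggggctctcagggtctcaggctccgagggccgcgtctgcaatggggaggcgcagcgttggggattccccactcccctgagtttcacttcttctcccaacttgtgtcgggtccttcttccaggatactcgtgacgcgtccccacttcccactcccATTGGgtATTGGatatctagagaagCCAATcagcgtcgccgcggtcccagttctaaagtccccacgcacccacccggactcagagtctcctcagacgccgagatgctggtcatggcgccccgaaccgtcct
HLA-C, chr6:31272043-31272342, minus strand: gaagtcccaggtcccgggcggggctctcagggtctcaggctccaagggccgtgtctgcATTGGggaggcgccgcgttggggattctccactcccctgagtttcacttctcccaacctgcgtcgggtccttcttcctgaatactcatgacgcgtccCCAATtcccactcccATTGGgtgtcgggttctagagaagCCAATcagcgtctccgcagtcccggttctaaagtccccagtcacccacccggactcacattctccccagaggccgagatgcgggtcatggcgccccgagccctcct
B2M, chr15:44711267-44711566, plus strand: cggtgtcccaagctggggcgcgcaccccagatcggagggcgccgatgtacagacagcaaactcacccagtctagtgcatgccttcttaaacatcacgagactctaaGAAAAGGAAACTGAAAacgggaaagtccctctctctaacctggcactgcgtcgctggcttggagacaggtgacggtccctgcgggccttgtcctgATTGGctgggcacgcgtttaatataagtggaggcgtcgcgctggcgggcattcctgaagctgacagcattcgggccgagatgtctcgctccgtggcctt
TAP2, chr6:32838690-32838989, minus strand: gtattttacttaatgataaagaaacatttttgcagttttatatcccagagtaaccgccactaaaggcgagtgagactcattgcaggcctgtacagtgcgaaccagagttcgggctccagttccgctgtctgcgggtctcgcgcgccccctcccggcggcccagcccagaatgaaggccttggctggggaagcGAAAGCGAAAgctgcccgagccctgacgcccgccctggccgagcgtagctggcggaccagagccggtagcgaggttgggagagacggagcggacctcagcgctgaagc
TAPBP, chr6:33314029-33314328, minus strand: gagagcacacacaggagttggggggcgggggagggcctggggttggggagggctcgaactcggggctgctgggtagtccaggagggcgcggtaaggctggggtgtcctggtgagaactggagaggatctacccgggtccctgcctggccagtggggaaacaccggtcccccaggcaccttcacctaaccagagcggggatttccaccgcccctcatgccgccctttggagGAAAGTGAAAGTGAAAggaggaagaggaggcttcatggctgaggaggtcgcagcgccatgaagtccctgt
PSMB8, second start site, chr6:32843998-32844297, minus strand: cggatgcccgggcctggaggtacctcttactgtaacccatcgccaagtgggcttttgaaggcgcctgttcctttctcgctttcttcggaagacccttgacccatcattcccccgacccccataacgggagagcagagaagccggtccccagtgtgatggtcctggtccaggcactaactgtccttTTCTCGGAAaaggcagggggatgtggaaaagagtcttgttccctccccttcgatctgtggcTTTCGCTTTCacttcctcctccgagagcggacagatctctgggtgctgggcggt

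In these windows, the HLA-B and HLA-C promoters were near copies, with 269 identical bases over 304 aligned columns (88.5%). Both had a CCAAT box that began 56 bases before the start site, and neither held the ISRE-like letters. B2M carried a pair of overlapping ISRE-like matches that began 144 and 138 bases before its start, and an inverted CCAAT box at 49 bases. TAPBP carried a similar pair within 20 bases of its start, and TAP2 a single match at 58 bases. In the second PSMB8 window, a GAS-like match lay 65 bases and an ISRE-like match 4 bases before the start. The first TAP1 window (chr6:32853655-32853954) held 2 overlapping ISRE-like matches and shared its edge with that of PSMB9 (chr6:32853942-32854241), which runs the other way. ISRE-like letters were found in 5 of the 10 windows, against 3.57% of all 35116 promoter windows. GAS-like letters were found in 2 of the 10, against 7.66%, and CCAAT in 5 of the 10, against 34.6%. AGAACA was found in 1 window, the first of PSMB8, at 127 bases before the start, against 14.8% of all windows. These matches describe letters in short windows. A window without a match says nothing about the factor.

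In VCaP cells, R1881 raised the peptide-binding chains of class I and lowered the immunoproteasome subunit PSMB8 and, at few reads, NLRC5. At 22 h, 8 of the 9 genes passed an adjusted p of 0.05, 4 of them up and 4 down, where 77.4% of the 19266 genes tested passed (37.4% up and 40.0% down). Without PSMB9, which was counted in very few reads, it was 7 of 8, 4 up and 3 down. The count alone therefore does not set these genes apart. The median log2 change of the 9 genes was 0.09, that of the 8 without PSMB9 was 0.33, and that of all genes was -0.03. All levels are CPM scaled by TMM factors, so more of a transcript per cell, less total RNA per cell and a larger share of cells that express it cannot be told apart.

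**Figure D1:**
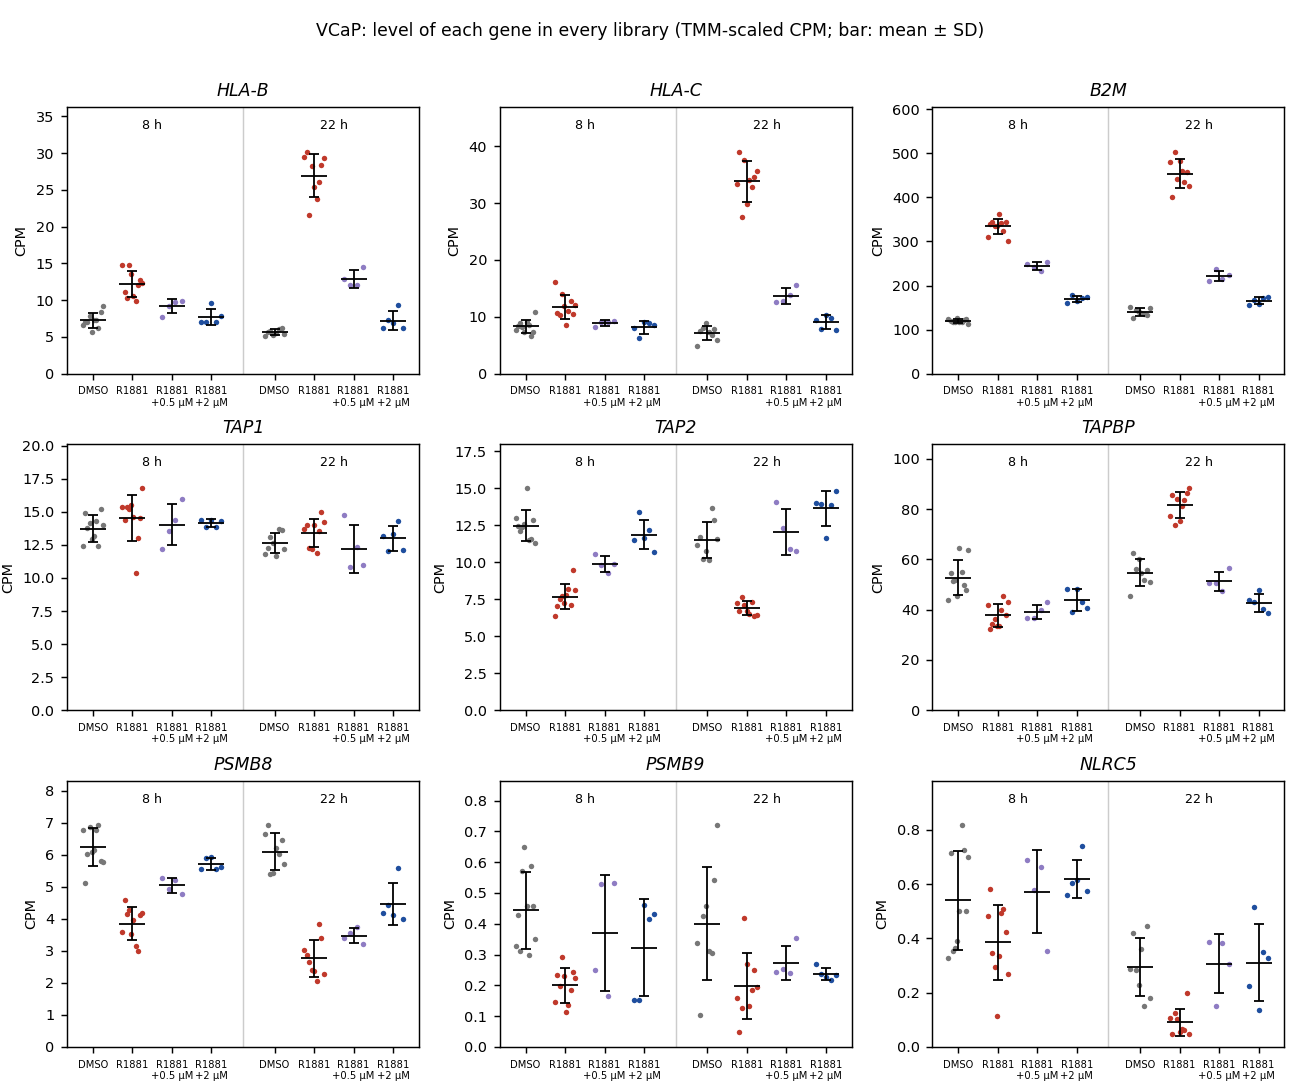
Level of each gene in every VCaP library, in TMM-scaled CPM on a linear axis from 0, with DMSO, R1881 and R1881 plus 0.5 or 2 µM darolutamide at 8 h (left) and 22 h (right) of each panel. Points are libraries and bars the mean ± SD. At 22 h the R1881 libraries of HLA-B, HLA-C, B2M and TAPBP lie above all DMSO libraries and those of TAP2 and PSMB8 below them, while the TAP1 groups overlap.

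HLA-B, a classical heavy chain, was at 5.10 to 6.17 CPM with DMSO at 22 h (median 5.60, n = 8). With R1881 it was at 21.55 to 30.2 CPM (median 28.2, n = 9). Every R1881 library was above every DMSO library, and the level was 4.79-fold higher (log2 change 2.26, SE 0.09, adjusted p = 6.9e-30). HLA-C, the other heavy chain, moved alike, from 4.86 to 8.86 CPM with DMSO (median 7.42) to 27.5 to 39.1 CPM with R1881 (median 34.1). Again the groups did not overlap, with a log2 change of 2.25 (SE 0.10, adjusted p = 5.1e-28). B2M, the light chain that all class I heavy chains share, had by far the highest level of the 9 genes. It was at 127 to 151 CPM with DMSO (median 139) and at 400.0 to 504 CPM with R1881 (median 457), without overlap and 3.25-fold higher (log2 change 1.70, SE 0.04, adjusted p = 4.0e-42).

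The heavy chains and the light chain differed in time course. At 8 h, B2M was already at 302 to 362 CPM with R1881 (median 338, n = 10) against 112 to 125 CPM with DMSO (median 118, n = 10), a log2 change of 1.49 (SE 0.03, adjusted p = 2.9e-41). HLA-B rose at 8 h by 0.75 on the log2 scale (SE 0.08, adjusted p = 6.2e-12), from a median of 7.17 to 12.2 CPM. HLA-C rose by 0.51 (SE 0.09, adjusted p = 2.0e-06), and its groups overlapped, with 6.70 to 10.9 CPM for DMSO and 8.61 to 16.1 CPM for R1881. The R1881 effect at 22 h exceeded that at 8 h by 1.51 log2 units for HLA-B (SE 0.12, adjusted p = 2.7e-16) and by 1.74 for HLA-C (SE 0.13, adjusted p = 4.3e-17). For B2M the same difference was 0.21 (SE 0.05, adjusted p = 2.4e-04).

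The genes of peptide transport and loading went in different directions. TAP2, the partner of TAP1 in the transporter, was at 10.2 to 13.7 CPM with DMSO (median 11.4) and at 6.40 to 7.69 CPM with R1881 (median 6.73) at 22 h. The groups did not overlap, and the log2 change was -0.74 (SE 0.07, adjusted p = 1.0e-14), close to the -0.71 at 8 h (SE 0.06, adjusted p = 1.8e-15). TAP1 was at 11.9 to 14.99 CPM with R1881 (median 13.7) beside 11.7 to 13.7 CPM with DMSO (median 12.4). Its log2 change of 0.09 did not pass the test (adjusted p = 0.21), and the 95% interval ran from -0.04 to 0.22. At 8 h the TAP1 change was 0.08, with an interval from -0.04 to 0.20 (adjusted p = 0.24).

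TAPBP changed its sign between the time points. At 8 h it fell from 43.8 to 64.6 CPM with DMSO (median 51.5) to 32.2 to 45.3 CPM with R1881 (median 37.0), with overlap and a log2 change of -0.48 (SE 0.06, adjusted p = 1.5e-09). At 22 h it rose from 45.6 to 62.6 CPM (median 55.1) to 73.6 to 88.3 CPM (median 83.8), without overlap and with a log2 change of 0.58 (SE 0.07, adjusted p = 3.4e-11). The difference between the 22 h and the 8 h effect was 1.06 (SE 0.09, adjusted p = 5.4e-15). DMSO libraries alone differed little between the time points, with a TAPBP change of 0.05 (SE 0.07, adjusted p = 0.62).

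PSMB8, the immunoproteasome subunit that replaces PSMB5, fell at both time points. At 22 h it was at 5.39 to 6.93 CPM with DMSO (median 6.11) and at 2.06 to 3.83 CPM with R1881 (median 2.65), again without overlap. Its log2 change was -1.14 (SE 0.09, adjusted p = 2.6e-17), after -0.69 at 8 h (SE 0.08, adjusted p = 1.7e-11), and the difference of -0.45 between the times passed the test (SE 0.12, adjusted p = 8.9e-04). With DMSO and R1881 replicates numbered 6 and above only, this difference was -0.27 and did not pass (adjusted p = 0.23). PSMB9, which replaces PSMB6, was near the limit of detection, with 1 to 16 reads per VCaP library and at least 10 reads in 10 of 55 libraries. Of these 10 libraries 5 were DMSO libraries of 8 h and 0 were R1881 libraries, so the gene passed the filter on low counts through groups where it was high. Its values are therefore given as a description. At 8 h it had at most 7 reads in an R1881 library and 4 to 15 reads in a DMSO library. Its level was 0.400 ± 0.184 CPM with DMSO and 0.198 ± 0.106 CPM with R1881 at 22 h (mean ± SD, n = 8 and 9), with overlapping libraries. Its fitted log2 change at 22 h was -0.998 with all libraries and -0.67 with control replicates 1 to 5 only, where it did not pass. Counts of genes called are therefore also given without PSMB9 where it was called.

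NLRC5, the transactivator, was also counted in few reads, 1 to 16 per VCaP library and at least 10 in 19 of 55, and 3 of the 8 groups, all at 8 h, would each have brought it past the filter alone. At 22 h it had 46 reads over 8 DMSO libraries and 15 reads over 9 R1881 libraries. These are 0.152 to 0.444 CPM (median 0.286) and 0.0468 to 0.200 CPM (median 0.0664), which overlap. The log2 change was -1.64 (SE 0.35, adjusted p = 3.4e-05). At 8 h the change was -0.47 (SE 0.21, adjusted p = 0.044), and this call was lost with DESeq2 (adjusted p = 0.080) and with control replicates 1 to 5 (-0.27, adjusted p = 0.47). It was also lost with no filter on low counts (adjusted p = 0.088) and with the compared groups alone (adjusted p = 0.073). With each library's GC slope as a covariate it did not pass either (adjusted p = 0.058). At 22 h NLRC5 thus fell while HLA-B, HLA-C and B2M rose.

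At 8 h the number of genes called was also 8 of 9, 3 up and 5 down, against 66.9% of all genes tested (32.8% up and 34.1% down), and 7 of 8 without PSMB9. These counts include the 8 h NLRC5 call, which several alternative fits lost. Of the 8 genes without PSMB9, the R1881 and DMSO libraries did not overlap for 4 at 8 h, against 32.0% of all genes, and for 6 at 22 h, against 46.8%. At 22 h, 5 of the 9 changed by more than 1 log2 unit with a passed test, HLA-B, HLA-C, B2M, PSMB8 and NLRC5, where 23.9% of all genes did so. At 8 h this held for B2M among the 8 genes without PSMB9, against 14.6% of all genes.

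**Figure D2:**
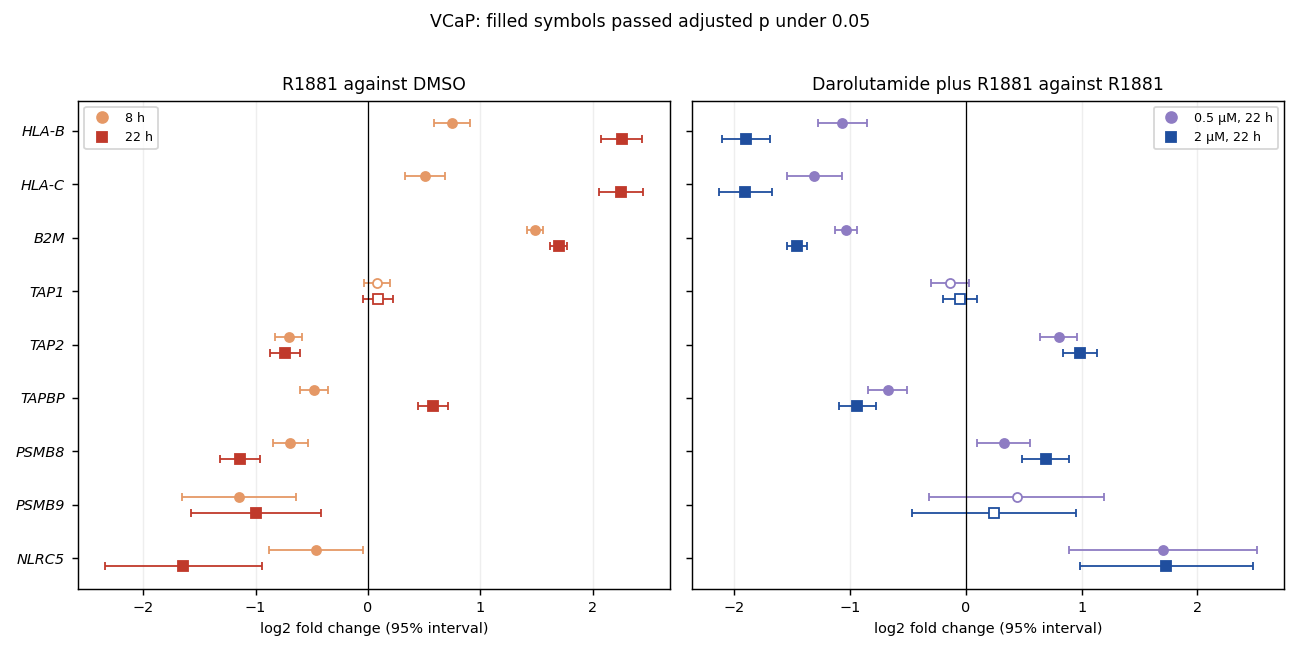
Log2 fold changes with 95% intervals in VCaP cells, for R1881 against DMSO at 8 and 22 h (left) and for 0.5 and 2 µM darolutamide plus R1881 against R1881 alone at 22 h (right). Filled symbols passed an adjusted p of 0.05. HLA-B, HLA-C and B2M lie right of 0 with R1881 and left of 0 with darolutamide, TAP2, PSMB8 and NLRC5 the other way round, and TAP1 lies at 0 in both.

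Darolutamide was then compared with R1881 alone. These comparisons use the same R1881 libraries as those with DMSO, so opposite signs are partly built in and each set of values is given on its own. At 22 h with 2 µM darolutamide, 7 of the 9 genes passed, 3 up and 4 down, where 66.9% of all genes passed (36.1% up and 30.8% down). With 0.5 µM, the count was also 7, against 53.0% of all genes. At 8 h it was 7 with 2 µM, against 52.1%, and 6 with 0.5 µM (5 of 8 without PSMB9), against 30.6%.

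HLA-B was at 12.84, 12.02, 12.12 and 14.57 CPM with 0.5 µM and at 6.25, 7.36, 6.87, 9.32 and 6.28 CPM with 2 µM darolutamide at 22 h. All of these were below the lowest R1881 library, and the 2 dose groups did not overlap. Against R1881, the log2 change was -1.07 with 0.5 µM (SE 0.11, adjusted p = 7.8e-13) and -1.90 with 2 µM (SE 0.10, adjusted p = 1.8e-23). HLA-C was at 12.60, 12.74, 13.79 and 15.58 CPM with the low dose and at 9.49, 7.91, 10.4, 9.84 and 7.64 CPM with the high dose. Its changes were -1.31 (SE 0.12, adjusted p = 3.45e-14) and -1.90 (SE 0.11, adjusted p = 9.1e-22). B2M was at 210.3, 237, 215 and 225 CPM with the low dose and at 156, 166, 159, 173 and 173 CPM with the high dose, again in separate ranges. The B2M changes were -1.04 (SE 0.05, adjusted p = 2.7e-26) and -1.46 (SE 0.04, adjusted p = 5.3e-35).

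At 8 h the same 3 genes were already lower with darolutamide. B2M was at 249, 243, 234 and 253 CPM with 0.5 µM and at 160.3, 177, 164, 172 and 173 CPM with 2 µM, with log2 changes of -0.45 (SE 0.05, adjusted p = 3.6e-12) and -0.98 (SE 0.04, adjusted p = 2.1e-27) against R1881. HLA-B changed by -0.41 (SE 0.11, adjusted p = 0.0023) and -0.66 (SE 0.10, adjusted p = 1.2e-07), and HLA-C by -0.40 (SE 0.12, adjusted p = 0.0078) and -0.54 (SE 0.11, adjusted p = 5.0e-05). All B2M libraries with darolutamide lay between the DMSO and the R1881 ranges of 8 h. With R1881 replicates 6 and above, the low-dose HLA-C change was -0.30 and did not pass (adjusted p = 0.069).

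For the heavy chains and B2M the 2 doses differed at 22 h. The change from 0.5 to 2 µM was -0.83 for HLA-B (SE 0.12, adjusted p = 1.8e-07), -0.59 for HLA-C (SE 0.13, adjusted p = 4.7e-04) and -0.42 for B2M (SE 0.05, adjusted p = 1.7e-09). PSMB8 rose by 0.36 between the doses (SE 0.12, adjusted p = 0.024) and TAPBP fell by 0.26 (SE 0.09, adjusted p = 0.038), which makes 5 of 9 genes where 20.2% of all genes passed. The TAPBP call was lost without any of 6 single libraries (low-dose replicate 2 or 4, or high-dose replicate 1, 2, 4 or 5), with adjusted p from 0.063 to 0.14. The PSMB8 call was lost without any of 3 (low-dose replicate 1 or 4, or high-dose replicate 4), with adjusted p from 0.096 to 0.13. With no filter on low counts both calls were lost (adjusted p = 0.063 for TAPBP and 0.053 for PSMB8). The TAPBP call was also lost with the replicate number as a block (adjusted p = 0.051). The PSMB8 call was also lost with the compared groups alone (adjusted p = 0.055). TAP2 differed by 0.18 between the doses, with a 95% interval from 0.01 to 0.36, and did not pass (adjusted p = 0.14). At 8 h only B2M (-0.53, SE 0.05, adjusted p = 1.3e-12) and TAP2 (0.26, SE 0.09, adjusted p = 0.031) differed between the doses, 2 of 9 genes against 17.6% of all. The TAP2 call was lost without any of 5 single libraries (low-dose replicate 2, 3 or 4, or high-dose replicate 2 or 4), with changes of 0.22 to 0.26. It was also lost with no filter on low counts (adjusted p = 0.051).

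TAP2 went up with the antagonist. It was at 14.10, 12.33, 10.92 and 10.76 CPM with 0.5 µM and at 13.99, 13.96, 11.66, 13.89 and 14.81 CPM with 2 µM at 22 h, all above the highest R1881 library at 7.69 CPM. The log2 changes against R1881 were 0.80 (SE 0.08, adjusted p = 1.0e-12) and 0.98 (SE 0.07, adjusted p = 1.2e-17). TAP1 did not pass at either dose, with -0.14 (95% interval -0.30 to 0.03) at 0.5 µM and -0.05 (-0.20 to 0.10) at 2 µM. Without low-dose replicate 1, the TAP1 change at 0.5 µM was -0.24 and passed (adjusted p = 0.020). TAPBP fell to 50.5, 50.5, 47.6 and 56.4 CPM with the low dose and to 43.7, 42.9, 47.9, 40.2 and 38.8 CPM with the high dose at 22 h. Its changes of -0.67 (SE 0.09, adjusted p = 1.2e-09) and -0.94 (SE 0.08, adjusted p = 1.5e-15) took the low-dose libraries into the DMSO range and 4 of 5 high-dose libraries below it. At 8 h, where R1881 had lowered it, TAPBP was 0.21 higher with 2 µM than with R1881 (SE 0.08, adjusted p = 0.016), a call that was lost without high-dose replicate 1 (adjusted p = 0.068), without replicate 3 (adjusted p = 0.071) and with R1881 replicates 6 and above (adjusted p = 0.15).

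PSMB8 stood at 3.39, 3.55, 3.74 and 3.20 CPM with 0.5 µM and at 4.18, 4.43, 4.11, 5.58 and 3.98 CPM with 2 µM at 22 h. The high-dose libraries were all above the R1881 libraries, and the low-dose libraries overlapped them. The log2 changes were 0.33 (SE 0.11, adjusted p = 0.013) and 0.69 (SE 0.10, adjusted p = 2.9e-08). Without low-dose replicate 3, or with R1881 replicates 6 and above, the low-dose PSMB8 change no longer passed (0.28 and 0.25, adjusted p = 0.059 and 0.15). PSMB9, at 5 to 7 reads in each darolutamide library of 22 h, is again only described, with changes of 0.44 and 0.25 and intervals that reached 1.19 and 0.95. NLRC5 had 8, 3, 8 and 6 reads with the low dose and 5, 13, 3, 8 and 7 reads with the high dose, against 1 to 4 reads per R1881 library. Its log2 changes were 1.70 (SE 0.41, adjusted p = 3.8e-04) and 1.73 (SE 0.37, adjusted p = 5.0e-05), and its groups overlapped. At 8 h the low-dose PSMB9 change was 0.92, given as a description. Its call did not hold with DESeq2, with R1881 replicates 1 to 5 or without low-dose replicate 2 or 4. The high-dose NLRC5 change at 8 h was 0.68 (SE 0.24, adjusted p = 0.015) and was lost with R1881 replicates 6 and above (adjusted p = 0.071). PSMB8 rose at 8 h by 0.39 with the low dose (SE 0.10, adjusted p = 0.0025) and by 0.57 with the high dose (SE 0.09, adjusted p = 6.1e-07).

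To set the doses on a common scale, the log2 CPM of each darolutamide library was expressed as a percentage of the way from the R1881 mean back to the DMSO mean at 22 h, a description without a test. HLA-B stood at 47.2% ± 5.68 of this way with 0.5 µM (SD, n = 4) and at 84.7% ± 10.4 with 2 µM (n = 5). HLA-C stood at 57.9% ± 6.27 and 84.5% ± 8.74, and B2M at 60.9% ± 4.47 and 85.7% ± 4.0. PSMB8 stood at 30.1% ± 8.19 and 60.5% ± 16.8, the lowest means among HLA-B, HLA-C, B2M, TAP2, TAPBP and PSMB8. TAP2, at 108% ± 24.8 and 134% ± 17.9, and TAPBP, at 116% ± 17.7 and 161% ± 20.1, went past the DMSO mean. At 8 h, B2M stood at 30.2% ± 3.40 and 65.9% ± 4.01, with the narrowest spread at each dose of the 8 genes given this value. TAP1, which did not pass for R1881, was given none.

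The residual difference between 2 µM darolutamide plus R1881 and DMSO was tested directly. At 22 h, 7 of 9 genes passed, 4 up and 3 down, against 59.0% of all genes (30.5% up and 28.5% down), and 6 of 8 without PSMB9. B2M remained higher by 0.24 log2 units (SE 0.04, adjusted p = 3.0e-06), HLA-B by 0.36 (SE 0.11, adjusted p = 0.0039) and HLA-C by 0.35 (SE 0.12, adjusted p = 0.0092). The HLA-B call was lost without high-dose replicate 4 (0.24, adjusted p = 0.072) and the HLA-C call without high-dose replicate 3 (0.27, adjusted p = 0.061) and with control replicates 1 to 5 (0.29, adjusted p = 0.063). TAPBP remained lower (log2 change -0.36, SE 0.08, adjusted p = 1.5e-04), PSMB8 lower (-0.45, SE 0.10, adjusted p = 7.4e-05) and TAP2 higher (0.24, SE 0.07, adjusted p = 0.0037). With DMSO and R1881 replicates 6 and above, the TAP2 difference was 0.09 and did not pass (adjusted p = 0.46), and that of HLA-B was 0.28 (adjusted p = 0.092). PSMB9 was at -0.75, given as a description because of the way it passed the filter. Its call was lost under 7 of the alternative fits and when replicate 2, 3 or 4 was left out. At 8 h only B2M (0.51, SE 0.04, adjusted p = 1.5e-15) and TAPBP (-0.27, SE 0.08, adjusted p = 0.0059) passed, 2 of 9 genes against 27.5% of all. The TAPBP difference at 8 h was -0.17 with control replicates 1 to 5 (adjusted p = 0.12).

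The effect of culture time alone was read from the DMSO libraries. Between DMSO at 8 h and DMSO at 22 h, 3 of 9 passed in VCaP, a share close to the 29.8% of all genes. B2M rose by 0.23 (SE 0.04, adjusted p = 8.2e-07), HLA-B fell by 0.37 (SE 0.09, adjusted p = 0.0016) and NLRC5 fell by 0.84 (SE 0.24, adjusted p = 0.0043). With replicates 1 to 5 only, the calls for HLA-B (adjusted p = 0.069) and NLRC5 (adjusted p = 0.41) were lost. Mean NLRC5 levels were lower at 22 h than at 8 h under all 4 treatments. The R1881 effect differed between the times for 6 of 9 genes, against 60.4% of all genes, with NLRC5 at -1.18 (SE 0.41, adjusted p = 0.014) beside those given above. With control replicates 6 and above, the NLRC5 difference was -0.69 (adjusted p = 0.40).

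Per kilobase of annotated exon, the order of the genes changed with treatment. In VCaP with DMSO at 22 h, mean levels in CPM per kilobase were 44.8 for B2M, 8.23 for TAPBP, 2.85 for HLA-C, 2.67 for TAP1, 1.75 for PSMB8, 1.22 for HLA-B and 1.11 for TAP2. PSMB9 followed at 0.120 and NLRC5 at 0.0238. With R1881, HLA-C reached 13.5 CPM per kilobase and TAPBP 12.3, HLA-B reached 5.83, and PSMB8 and TAP2 dropped to 0.793 and 0.667. The B2M level with R1881 was 146 CPM per kilobase, so it exceeded both heavy chains together in every group. Lengths are unions of GENCODE 44 exons, so genes with long rare isoforms, such as HLA-B, come out low on this scale.

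LAPC4 cells gave a different picture. At 22 h, HLA-B was at 1.45 to 2.77 CPM with DMSO (median 1.85, n = 7) and at 0.898 to 2.09 CPM with R1881 (median 1.78, n = 10). HLA-C was at 2.06 to 4.24 CPM (median 2.76) and 2.13 to 4.26 CPM (median 2.62), and B2M at 63.1 to 71.6 CPM (median 65.8) and 64.6 to 70.9 CPM (median 67.6). The groups overlapped for every one of these genes. TAP1 was at 1.64 to 2.81 CPM with DMSO and 2.13 to 3.17 CPM with R1881, and TAPBP at 57.7 to 76.1 and 55.6 to 80.4 CPM. TAP2 had 3 to 24 reads per library.

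Transcripts of PSMB8 and PSMB9 were all but absent in LAPC4. PSMB8 had 13 reads and PSMB9 15 reads in all 57 libraries together, with 0 reads in 46 libraries for each gene. PSMB8 had 0 reads over the 10 R1881 libraries of 22 h, which allows a level of up to 0.0156 CPM by counting error alone, against 2.76 ± 0.574 CPM with R1881 in VCaP (mean ± SD, n = 9). NLRC5 had 152 reads in all, at most 7 in a library. These 3 genes failed the filter of 10 reads in 4 libraries and were not tested in LAPC4, which leaves 6 of the 9.

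**Figure D3:**
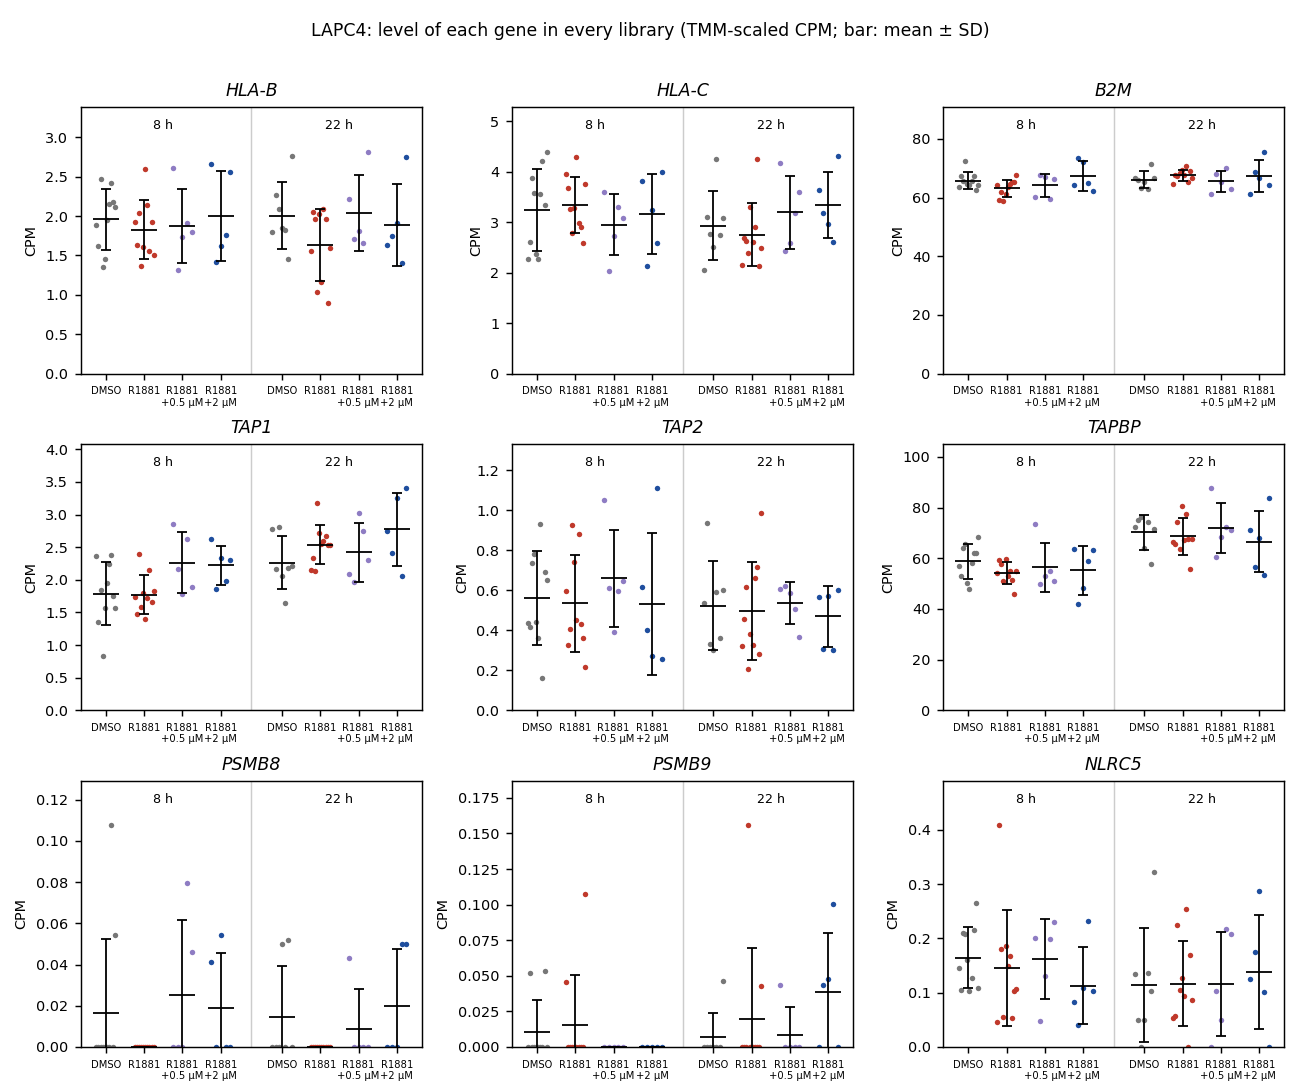
Level of each gene in every LAPC4 library, in TMM-scaled CPM on a linear axis from 0, with the groups ordered as DMSO, R1881 and R1881 plus 0.5 or 2 µM darolutamide at 8 h (left) and 22 h (right). Points are libraries and bars the mean ± SD. The groups overlap in every panel, and PSMB8 and PSMB9 sit at 0 in 46 of 57 libraries each.

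Against DMSO, R1881 changed 0 of the 6 tested genes in LAPC4 at 22 h in edgeR, where 13.3% of all 18204 genes passed, and 0 at 8 h, where 2.64% passed. At an unadjusted p under 0.05 the counts were also 0 and 0 of 6, against 23.1% and 9.66% of all genes. With so few genes, these counts do not set the 6 apart from all genes. The 95% intervals of the log2 change at 22 h were narrow for B2M (-0.04 to 0.11) and TAPBP (-0.21 to 0.14), wider for HLA-C (-0.40 to 0.22), HLA-B (-0.64 to 0.03) and TAP1 (-0.10 to 0.43), and widest for TAP2 (-0.66 to 0.56). When each library's GC slope was added as a covariate, HLA-B (-0.41, adjusted p = 0.0098) and TAPBP (-0.10, adjusted p = 0.046) passed as lower with R1881. The cells of this line did respond to R1881 elsewhere, since the androgen-regulated protease genes KLK2 and KLK3 rose by 2.53 (SE 0.11, adjusted p = 6.8e-26) and 1.65 (SE 0.08, adjusted p = 3.2e-24) at 22 h. With DESeq2 the count was 0 of 6 at both times as well.

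Darolutamide moved none of the 6 genes past the threshold in LAPC4 in edgeR. Against R1881 at 22 h, 10.5% of all genes passed with 2 µM and 5.89% with 0.5 µM, and at 8 h 1.54% and 0.626%. At these shares, a count of 0 of 6 does not set the genes apart. At an unadjusted p under 0.05 the counts of the 6 genes were 0 at 22 h for both doses, against 21.0% of all genes with 2 µM and 2733 of 18204 genes with 0.5 µM. At 8 h they were 2 with 2 µM, against 7.84%, and 1 with 0.5 µM, against 4.86%. DESeq2 called 0 in each of these comparisons. The HLA-C change with 2 µM at 22 h was 0.27, with an interval from -0.07 to 0.61 (adjusted p = 0.40), and it passed as 0.32 with the GC slope as covariate (adjusted p = 0.043). Between the doses, and between 2 µM and DMSO, 0 of 6 passed at either time (background 0.0275% and 0.258% between the doses at 8 and 22 h, 0.011% and 0.0165% against DMSO). From 8 to 22 h in DMSO, TAPBP rose by 0.26 (SE 0.09, adjusted p = 0.023), 1 of 6 genes against 22.1% of all, and the call was lost with replicates 1 to 5 (adjusted p = 0.052) and with 6 and above (0.12, adjusted p = 0.73). In LAPC4, control replicates numbered 6 and above differed from 1 to 5 in 21.6% of all genes, though in 0 of the 6 tested here, and in VCaP in 0 genes. The R1881 effect at 22 h minus that at 8 h passed for 0 of 6 genes, against 3.21%.

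The lines were also compared directly. With DMSO at 22 h, 5 of the 6 genes tested in both lines were higher in VCaP, where 85.5% of the 16578 shared genes differed (41.4% higher in VCaP). The difference was 4.74 log2 units for TAP2 (SE 0.16, adjusted p = 1.0e-49), 2.78 for TAP1 (SE 0.10, adjusted p = 8.2e-47), 1.78 for HLA-B (SE 0.13, adjusted p = 3.8e-24), 1.58 for HLA-C (SE 0.13, adjusted p = 1.7e-20) and 1.38 for B2M (SE 0.04, adjusted p = 1.3e-53). TAPBP did not differ past the threshold (-0.06, SE 0.08, adjusted p = 0.46). With 1 line of each kind, line and culture cannot be told apart.

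**Figure D4:**
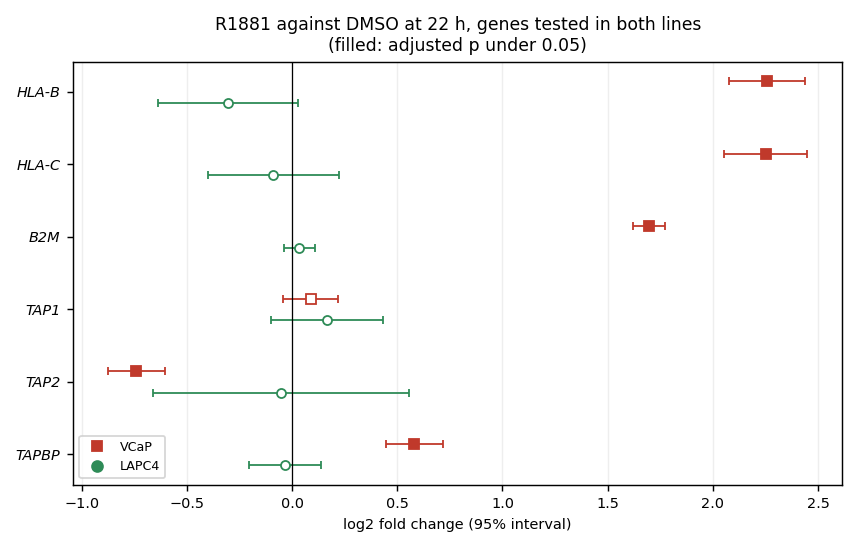
Log2 fold change with 95% interval of R1881 against DMSO at 22 h for the 6 genes tested in both lines, VCaP as squares and LAPC4 as circles. Filled symbols passed an adjusted p of 0.05. HLA-B, HLA-C, B2M and TAPBP lie right of 0 and TAP2 left of 0 in VCaP, while all 6 LAPC4 intervals include 0.

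The R1881 effect itself was larger in VCaP than in LAPC4 for 4 genes and lower for 1, in a test of the difference between the lines at 22 h, where 68.5% of shared genes differed (31.6% larger and 36.9% lower). The difference of log2 changes was 2.50 for HLA-B (SE 0.18, adjusted p = 1.3e-24), 2.28 for HLA-C (SE 0.18, adjusted p = 2.7e-22), 1.61 for B2M (SE 0.06, adjusted p = 3.8e-48) and 0.56 for TAPBP (SE 0.10, adjusted p = 9.8e-07). TAP2 differed by -0.75 (SE 0.26, adjusted p = 0.0089). This TAP2 call rests on few LAPC4 reads, and with control replicates 1 to 5 it was -0.22 and lost (adjusted p = 0.60). The TAP1 effects differed by -0.14 (SE 0.14, adjusted p = 0.39).

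Over the 55 VCaP libraries, log2 CPM of HLA-B and HLA-C went together (Pearson r = 0.957), as did HLA-B and B2M (0.874), and PSMB8 ran against both HLA-B (-0.844) and B2M (-0.858). TAP1 was near 0 with HLA-C (0.047) and B2M (0.112). These libraries share treatments, so the values describe the design as much as the genes. After the group means were taken off, HLA-B and HLA-C kept 0.597, while HLA-C and B2M turned to -0.620 and HLA-C and TAPBP stood at 0.691. The longest transcripts of HLA-C, TAPBP and B2M have 62.7%, 56.98% and 38.9% GC, and the slope of log2 CPM on the GC share of genes ranged from -9.87 to -4.68 over VCaP libraries. The R1881 group of 22 h (-8.97 to -5.00) and the DMSO group of 22 h (-9.87 to -6.09) overlapped in this slope, and its part in these correlations was not tested. R1881 at 22 h was fitted under 11 settings, some with this slope as a covariate. Over them the log2 change was 2.16 to 2.29 for HLA-B, 2.13 to 2.31 for HLA-C and 1.66 to 1.74 for B2M. It was 0.49 to 0.67 for TAPBP, -0.94 to -0.63 for TAP2 and -1.22 to -1.07 for PSMB8.

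Among other genes with a mean log2 CPM above 1, those nearest to B2M over the 55 libraries were SOCS2 (Pearson r = 0.989), RNF103 (0.988) and HIPK2 (0.988). HLA-B was nearest to COPG1 (0.976), RRBP1 (0.965) and GMPPA (0.965), and HLA-C to SLC27A3 (0.981), TRPT1 (0.975) and DAP (0.971). TAP2 was nearest to SAMD5 (0.936), TAPBP to SERPINF2 (0.958) and PSMB8 to SLC17A4 (0.934). TAP1 had no gene above 0.606, that of ACOT2. For none of the 9 genes did any of its 3 nearest genes recur once group means were removed.

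The rest of the antigen presentation pathway was read from lists of genes, each given by its counts beside the background of 37.4% up and 40.0% down for R1881 at 22 h in VCaP. For 2 µM darolutamide against R1881 at 22 h the background was 36.1% up and 30.8% down. Of the non-classical class I genes, HLA-E and HLA-G were tested and both rose, HLA-E from 1.03 ± 0.259 to 3.17 ± 0.665 CPM (log2 change 1.61, SE 0.18, adjusted p = 5.9e-12) and HLA-G from 0.307 ± 0.0649 to 1.499 ± 0.402 CPM (2.27, SE 0.24, adjusted p = 2.2e-12). Reads can be shared between HLA genes, and at these low levels both values are uncertain. Of 10 further genes of the class I route, 6 rose and 2 fell, with a median log2 change of 0.48. The chaperones of the loading complex led, with PDIA3 going from 538 ± 24.9 to 1618 ± 80.1 CPM (1.59, SE 0.04, adjusted p = 3.4e-42), CANX at 1.22 (SE 0.03, adjusted p = 6.6e-37) and CALR at 1.13 (SE 0.03, adjusted p = 2.4e-35). The constitutive catalytic subunits of the proteasome all rose, PSMB6 by 0.85 (SE 0.05, adjusted p = 8.9e-24), PSMB5 by 0.62 (SE 0.04, adjusted p = 1.0e-19) and PSMB7 by 0.42 (SE 0.03, adjusted p = 5.2e-18). With 2 µM darolutamide against R1881 these 3 subunits fell by 0.42, 0.22 and 0.30.

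**Figure D5:**
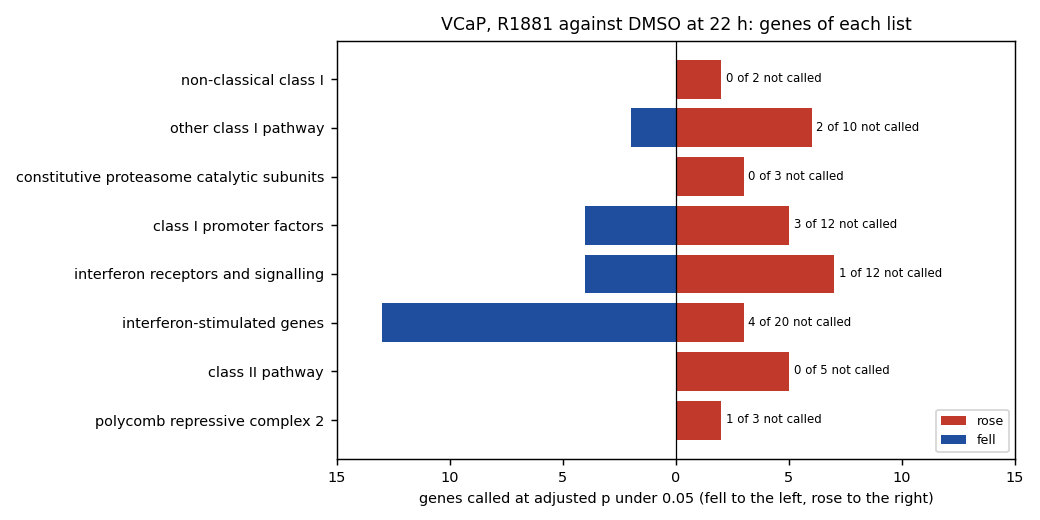
Number of genes of each list that rose (right, red) or fell (left, blue) with R1881 against DMSO at 22 h in VCaP, at an adjusted p of 0.05, with the number not called written beside each bar. All 5 tested class II pathway genes rose, and 13 of 20 tested interferon-stimulated genes fell.

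Genes of the class II route, which shows peptides to CD4 T cells, rose in all 5 of the cases tested among 10, with a median of 2.27. HLA-DMB, a peptide-exchange chain, went from 4.33 ± 0.417 to 22.7 ± 1.37 CPM (2.38, SE 0.07, adjusted p = 7.9e-38). HLA-DPB1 rose by 2.27 (SE 0.12, adjusted p = 3.6e-25) and HLA-DRB1 by 1.25 (SE 0.07, adjusted p = 4.9e-24). With 2 µM darolutamide all 5 fell against R1881, where 30.8% of all genes fell, HLA-DMB by 1.62 (adjusted p = 1.9e-27). In LAPC4, 2 of the 10 were tested and 0 passed for R1881 at 22 h.

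Interferon-stimulated genes went mostly the other way in VCaP. Of 35 listed, 20 were tested, 13 fell and 3 rose with R1881 at 22 h, and their median log2 change was -0.43 against -0.03 for all genes. PARP14 fell from 24.0 ± 1.70 to 11.7 ± 1.56 CPM (log2 change -1.05, SE 0.06, adjusted p = 1.5e-22) and OAS3 from 37.8 ± 3.22 to 23.4 ± 1.58 CPM (-0.69, SE 0.05, adjusted p = 5.0e-20), while USP18 rose by 1.16 (SE 0.08, adjusted p = 1.7e-19). With 2 µM darolutamide against R1881, 9 of the 20 rose and 2 fell, where 36.1% of all genes rose and 30.8% fell. OAS3, at 59.9 ± 2.36 CPM, exceeded its DMSO level. Interferon receptors and their signalling proteins split, with 7 up and 4 down of 12. JAK2 rose by 1.22 (SE 0.09, adjusted p = 8.7e-19) and IFNAR1 by 0.53 (SE 0.04, adjusted p = 2.7e-19), and STAT2 fell by 0.44 (SE 0.04, adjusted p = 1.2e-16).

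Factors that act at class I promoters also split, 5 up and 4 down of 12. NFKB1 fell by 0.70 (SE 0.04, adjusted p = 1.3e-21) and NFYB by 0.47 (SE 0.04, adjusted p = 3.2e-14), and ATF1 rose by 0.39 (SE 0.05, adjusted p = 7.7e-11). IRF1, which binds interferon response elements, rose from 3.60 ± 0.446 to 5.27 ± 0.450 CPM (0.55, SE 0.08, adjusted p = 3.0e-08). RFX5 at 0.03 (adjusted p = 0.41) and IRF2 at -0.00 (adjusted p = 0.98) did not pass. Of the 3 core genes of polycomb repressive complex 2, SUZ12 (0.39, SE 0.04, adjusted p = 2.0e-12) and EED (0.26, SE 0.06, adjusted p = 6.3e-05) rose.

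In LAPC4 the background for these lists was 6.83% up and 6.45% down for R1881 at 22 h. Of 12 promoter factors 3 fell, IRF1 by 0.48 (SE 0.10, adjusted p = 1.6e-04), RFX5 by 0.14 (SE 0.02, adjusted p = 1.3e-06) and IRF2 by 0.12 (SE 0.04, adjusted p = 0.038). Whether the IRF1 effect differed between the lines was not tested. Of 22 tested interferon-stimulated genes 4 fell, IFI44 by 0.25 (SE 0.04, adjusted p = 4.6e-06), IFI44L by 0.22 (SE 0.05, adjusted p = 0.0019) and IFIH1 by 0.24 (SE 0.07, adjusted p = 0.0079) among them. IFNGR1 fell by 0.15 (SE 0.04, adjusted p = 0.0073) and IFNGR2 by 0.10 (SE 0.03, adjusted p = 0.014) as the 2 of 12 signalling genes called, and STAT2 (-0.06, adjusted p = 0.22) did not pass. PSME1, a proteasome activator subunit, fell by 0.07 (SE 0.02, adjusted p = 0.046) as the only one of 10 further class I genes, 0 of 3 constitutive subunits and 0 of 2 non-classical genes passed, and EZH2 rose by 0.11 (SE 0.03, adjusted p = 0.013) as the 1 of 3 polycomb genes. Luminal markers rose for 8 of 8 genes in VCaP and for 3 of 8 in LAPC4.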

How the data were processed

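Poly-A RNA of 112 libraries was prepared with a TruSeq stranded kit and sequenced as single-end reads of 50 bases. Per the submitters' processing notes and methods, the authors made the deposited counts with bcl2fastq 2.17, STAR on GRCh38 and featureCounts of Subread, and used DESeq2. The other versions, the annotation and the strand setting are not given in the sources used here. The deposited values are raw counts per gene and library. Depth was 12188455 to 25201678 reads per library. Floors cover counting error only. Intervals come from the fit described below and, like the p-values, measure only the spread between these libraries.

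Genes with at least 10 reads in 4 or more libraries of a line were tested (19266 in VCaP, 18204 in LAPC4, 16578 in both). The 8 groups of a line, or all 16 for comparisons between lines, entered 1 fit with TMM factors and edgeR's quasi-likelihood test (edgeR 4.0.16, limma 3.58.1, R 4.3.3), with Benjamini-Hochberg adjustment over all genes and a threshold of 0.05. Log2 CPM used a prior count of 2. The SE is the absolute log2 change over the root of F. Tables and figures used Python 3.11.15, pandas 2.3.3 and matplotlib 3.10.9. The scripts were tested on simulated data. Alternatives were DESeq2 1.42.0, RLE size factors, no filter, filterByExpr, the compared groups alone, the replicate number as a block, control replicates 1 to 5 or 6 and above, the GC slope of each library as a covariate, and leaving out each darolutamide library. Of 382 pairs of replicates 0 were identical, and the smallest chi-square per degree of freedom was 1.47. Columns that matched no sample numbered 0.

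The genes and lists were chosen with earlier results of these data known. All 9 genes are named, with up to 3 genes of each list by smallest adjusted p for R1881 at 22 h in each line, IRF1, IRF2, RFX5 and STAT2, and the 3 genes most like each of the 9 by Pearson r. Some genes that this rule or a marker list holds are not reported here.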

Additional observations from a re-analysis of the deposited data

Results flagged for a closer look

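In 7 of 120 groups tested, 1 library stood apart from the others of its group by Dixon's ratio of its gap to the whole range. Chance gives about 1 in 20 groups. In VCaP, TAP1 with R1881 at 8 h was lowest in replicate 7 (ratio 0.469, 10.4 CPM against 13 to 16.8), and NLRC5 in the same group was lowest in replicate 5 (0.47, 0.116 CPM against 0.27 to 0.581). TAP2 was highest in DMSO replicate 6 at 8 h (0.497, 15 CPM against 11.3 to 13) and lowest in replicate 3 of 2 µM darolutamide at 22 h (0.733, 11.7 CPM against 13.9 to 14.8). PSMB9 was highest in replicate 4 of 0.5 µM at 22 h (0.86, 0.355 CPM against 0.239 to 0.254). In LAPC4, B2M was highest in DMSO replicate 4 at 8 h (0.501, 72.5 CPM against 62.7 to 67.4), and TAPBP in replicate 1 of 0.5 µM at 8 h (0.76, 73.4 CPM against 50 to 54.8).

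In VCaP the log2 effect of R1881 at 22 h differed from that at 8 h, by edgeR's test of the difference, for HLA-B (1.51), HLA-C (1.74), B2M (0.21), TAPBP (1.06), PSMB8 (-0.45) and NLRC5 (-1.18). The R1881 effect at 22 h differed between VCaP and LAPC4, VCaP minus LAPC4, for HLA-B (2.50), HLA-C (2.28), B2M (1.61), TAP2 (-0.75) and TAPBP (0.56).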

How the results depend on the processing

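Of 79 called values of the 9 genes, 58 kept their direction and their side of the threshold under every alternative run, and 21 lost the call under at least 1. The TAPBP difference between the lines with DMSO at 22 h was not called at -0.06 and became 0.13 with the GC slope as covariate (adjusted p = 9.8e-04). In VCaP, the number of the genes called between the doses at 8 h went from 2 to 1 with no filter and to 4 with the GC slope, and ranged from 1 to 3 when single libraries were left out. Between the doses at 22 h it went from 5 to 3 with no filter and ranged from 3 to 5 without single libraries, and for 2 µM against DMSO at 8 h it went from 2 to 1 with control replicates 1 to 5. In LAPC4, R1881 at 22 h went from 0 to 2 called with the GC slope, with or without the replicate block (HLA-B and TAPBP), and 2 µM against R1881 at 22 h from 0 to 1 (HLA-C). With both the GC slope and the block, 2 µM against R1881 at 8 h (B2M) and 2 µM against DMSO at 22 h (TAPBP) each went from 0 to 1. LAPC4 DMSO at 22 h against 8 h went from 1 to 2 with the block, the GC slope or both, and to 0 with control replicates 1 to 5 or 6 and above. The count between lines with DMSO went from 5 to 8 with no filter and with filterByExpr, where 3 more genes were tested. The cause of the other changes was not tested.

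Without single libraries, the other VCaP counts ranged from 6 to 8 and 5 to 6 for 0.5 µM against R1881 at 22 and 8 h, from 6 to 8 for 2 µM at 8 h, and from 5 to 7 for 2 µM against DMSO at 22 h.

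Over all genes, counts called moved over 1.5 times in 51 comparisons and settings, 45 of them in LAPC4. For example, R1881 at 22 h in LAPC4 went from 2418 to 863 with control replicates 6 and above and to 4082 with the GC slope, and the VCaP dose comparison at 22 h from 3889 to 5971. Share of the way back moved with control replicates 1 to 5 for NLRC5 at 8 h (122% to 238% and 153% to 288%), TAP2 with 2 µM at 22 h (134% to 155.5%) and PSMB9 with 2 µM at 22 h (35.1% to 51.6%). After group means were removed, 0 of 3 nearest genes recurred for each of the 9 genes in VCaP, and 0 to 2 of 3 in LAPC4 (1 for HLA-B, 2 for HLA-C, 1 for B2M, 0 for TAP1, 1 for TAP2 and 0 for TAPBP).

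Same replicate numbers did not pair the VCaP libraries. There, 33 of 149 pairs had a correlation over 0.1, and 7 of 55 libraries correlated best with their own number. In LAPC4 these were 57 of 161 pairs and 6 of 57 libraries. The mean LAPC4 correlation was 0.055 for same numbers and -0.0072 for other numbers. Over all genes, the replicate block raised the number called in every comparison within LAPC4 and lowered it in every comparison within VCaP. For 2 µM against DMSO at 22 h in LAPC4 it went from 3 to 171, and for 2 µM against R1881 from 1906 to 2876. Whether LAPC4 libraries of the same number belong together was not tested. Among the class I genes followed here, the block moved the number called from 5 to 4 between the doses in VCaP at 22 h. It went from 7 to 6 for 2 µM against DMSO in VCaP at 22 h, and from 5 to 6 between the lines with DMSO. Depth limits PSMB9 and NLRC5 in both lines, and TAP2 and PSMB8 in LAPC4.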
